A study of Homo sapiens with 9 samples.

Results

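Interferon-stimulated genes were followed in clones of K562, a human erythroleukaemia line derived from chronic myeloid leukaemia, as 37 named genes covering the transcription factors, RNA sensors and effectors of the interferon response. The members were taken by symbol from a given list, and 37 of 37 were found among the 63677 gene IDs of the count files. Of the clones, 4 carried the P95H substitution in SRSF2, a splicing factor that is recurrently mutated in myeloid neoplasms (P9, P15, P22 and P38). They were set against 4 clones with unmutated SRSF2, called WT (W19, W33, W36 and W42), while 1 library of the parental K562 line, also wild-type for SRSF2, stood beside them. No interferon treatment is named in the labels for any group. The clones were made by CRISPR editing, and each is 1 library of polyadenylated RNA, so the error given is the spread between clones. The labels leave it unstated if each clone goes back to an edit of its own.

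Interferons are secreted by cells that sense foreign nucleic acid. They bind receptors whose kinases phosphorylate STAT proteins, and a complex that holds STAT2 and IRF9 then binds the interferon-stimulated response element (ISRE) before its target genes. Many targets code for proteins that block viruses or for parts of the response itself, so that sensors and transcription factors of the pathway are also among its targets. In leukaemic cells the same genes can be expressed at a low level with no added interferon.

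The shallowest library, W33, had 24546255 reads counted in genes, and the deepest, the parental one, had 35477328. Levels are CPM, reads in a gene scaled to a common library total with TMM, and 3 reads, taken as the floor, were worth 0.0865 CPM in the parental library to 0.133 CPM in W33, a limit for counting error only. SRSF2 averaged 498.9 ± 62.0 CPM in P95H clones and 489 ± 27.7 CPM in WT clones (SD, n = 4 each), and the counts do not separate the alleles. W33 and P22 stood apart from the other clones of their groups, with 2258 and 92 genes called in edgeR tests of the single clone against the other 3. Of 9 markers of K562 cells all were expressed, with 6 above 0 and 3 below 0 in log2 difference and summed levels of 2987 to 6172 CPM in P95H clones and 3287 to 4911 CPM in WT clones. For other cell types, the monocyte and macrophage markers summed to 17.1 to 60.8 CPM in P95H clones and 17.7 to 30.01 CPM in WT clones (mostly LYZ and ITGAM, with CD14, CSF1R and CD163 at most 0.531 CPM in any clone). The plasmacytoid dendritic cell markers summed to 23.4 to 32.999 CPM in P95H clones and 14.5 to 21.96 CPM in WT clones, nearly all of it TCF4, whose values did not overlap between the groups (log2 difference 0.51), while CLEC4C, IL3RA and LILRA4 were at or near 0. The T, NK and B lymphocyte markers summed to 5.65 to 24.2 CPM in P95H clones and 14.4 to 34.3 CPM in WT clones, with MS4A1 at 0 throughout, and the fibroblast markers to 1.28 to 7.07 CPM in P95H clones and 2.80 to 10.6 CPM in WT clones, with LUM at 0 throughout. Of the 7, 4, 7 and 6 markers of these 4 lists, only 4, 1, 4 and 1 passed the filter and were tested. The edgeR fit called 0 of them and 0% of all genes, so this count does not show that the groups were alike in these markers. The part of these markers in the results was not tested.

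The response element itself is visible in the DNA before several members. It was searched as GAAANNGAAA on both strands in the 250 bases before each start listed by RefSeq (GRCh38.p14), where 28 of the 37 members had an entry. A match was found for 18 of the 28 members (64.3%), against 1014 of 27305 genes with an entry (3.71%). The gamma-activated site, an element of interferon gamma targets, searched as TTCNNNGAA on both strands, matched in 8 of 28 members (28.6%) against 8.09% of all genes. The promoters below are examples with a match, from the IFIT family, the OAS family, the membrane proteins and the PARP9 and DTX3L pair. They were chosen among members given in full by the rule stated at the end, with PARP9 shown for its pair. Of those members, STAT2 and DTX3L had no match, and DHX58, USP18 and TRIM22 no entry. Capitals mark the ISRE match on either strand. For IFIT3 the bases are chr10:89327747-89327996 and chr10:89332279-89332528 on the plus strand, before its 2 listed starts. For OAS3 they are chr12:112938224-112938473 on the plus strand, and for IFI6 chr1:27672193-27672442 on the minus strand. PARP9 and DTX3L leave from starts 38 bases apart in opposite directions, and for this pair only the 30 bases around the match of PARP9 are shown (chr3:122564322-122564351, minus strand).
IFIT3, first start: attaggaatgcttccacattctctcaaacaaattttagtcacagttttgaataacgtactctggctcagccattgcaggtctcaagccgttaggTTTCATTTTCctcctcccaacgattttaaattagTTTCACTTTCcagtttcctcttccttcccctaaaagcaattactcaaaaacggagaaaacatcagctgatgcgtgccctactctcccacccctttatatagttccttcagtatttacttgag
IFIT3, second start: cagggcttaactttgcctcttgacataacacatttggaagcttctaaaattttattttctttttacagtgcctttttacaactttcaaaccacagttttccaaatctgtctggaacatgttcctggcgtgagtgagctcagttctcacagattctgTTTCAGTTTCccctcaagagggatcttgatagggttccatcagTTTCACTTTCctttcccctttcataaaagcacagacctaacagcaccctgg
OAS3: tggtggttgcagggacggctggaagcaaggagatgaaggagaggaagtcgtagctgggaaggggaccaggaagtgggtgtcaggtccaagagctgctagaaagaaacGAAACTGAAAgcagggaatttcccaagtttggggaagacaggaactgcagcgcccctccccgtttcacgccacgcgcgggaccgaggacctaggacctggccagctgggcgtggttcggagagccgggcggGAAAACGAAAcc
IFI6: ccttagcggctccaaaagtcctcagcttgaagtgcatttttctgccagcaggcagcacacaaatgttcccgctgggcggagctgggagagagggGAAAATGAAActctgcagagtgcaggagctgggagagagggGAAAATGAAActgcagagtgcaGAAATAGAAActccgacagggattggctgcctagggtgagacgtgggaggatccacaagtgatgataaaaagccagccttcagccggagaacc
PARP9: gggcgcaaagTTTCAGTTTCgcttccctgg

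The IFIT3 window before its first start and the one before its second start each held 2 matches, OAS3 held 2 and IFI6 held 3. In OAS3 the match nearest the start began 12 bases before it. STAT2, IRF1, IRF9, DTX3L and TRIM21 had an entry and no match, which says only that these letters are not in this window. Among the members tested between the groups, the median log2 difference was 0.65 for the 12 with an ISRE match and 0.60 for the 8 without one. The match of PARP9 began 41 bases before its start, and DTX3L starts 38 bases away, so this match runs across the start of DTX3L. DTX3L (log2 difference 0.95) was counted among the 8 without a match, and these medians depend on where its window ends.

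Across the members, levels were low to moderate in this line. Per length of the gene's exons the most abundant was IFITM1, at 193 FPKM in P95H clones and 259.6 FPKM in WT clones (FPKM, CPM per kilobase of exon, with exon lengths from GENCODE 29). BST2 followed in WT clones at 115.5 FPKM, with 74.3 FPKM in P95H clones, and IFITM3 averaged 91.1 FPKM in P95H clones and 19.6 FPKM in WT clones with a wide spread between clones. ISG15 stood at 13.9 FPKM in P95H clones and 16.3 FPKM in WT clones, STAT2 at 9.26 FPKM in P95H clones and 5.10 FPKM in WT clones, and IFIT2 lowest of the tested members, at 0.181 FPKM in P95H clones and 0.0705 FPKM in WT clones. The edgeR filter on low counts left 26 members for testing. The 11 left out were OAS1, OAS2, OASL, IFIT5, IFI44, IFI44L, ISG20, MX1, MX2, IFIH1 and XAF1. Among all 37, IFI44L was at 0 in all 9 libraries, and 5 members never exceeded 3 reads in any library. By group means, 29 of the 37 were higher and 6 lower in P95H clones, where 9239 of all 18173 genes tested were higher and 8934 lower. The 29 include genes with a few reads or fewer, such as OAS1, OAS2 and MX1, whose direction carries little weight.

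Between the groups, most tested members lay higher in P95H clones, and none passed the test over all genes. Of the 26 tested, 21 had a log2 difference above 0, where 52.1% of all 18173 genes tested did, and their median was 0.85 against 0.01 for all genes. The edgeR quasi-likelihood test with Benjamini-Hochberg adjustment called 0 members, and 0% of all genes (smallest adjusted p of a member 0.282, for IFIT3). At an unadjusted p under 0.05 there were 10 members higher and 0 lower in P95H clones, where 6.07% of all genes were higher and 5.65% lower. All 4 P95H values lay above all 4 WT values for 5 members, STAT2, IFIT2, IFIT3, DHX58 and DTX3L, and below them for 0, where 3.94% and 4.63% of all genes were so placed. DESeq2 called 5 members, all higher (STAT2, IFIT3, OAS3, DHX58 and DTX3L), where it called 0.814% of all genes higher, and limma-voom with quality weights called 0 members, where it called 0.209% of all genes higher. With P15 left out the median over members was 0.51, and leaving out any other single clone gave up to 0.99.

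**Figure D1:**
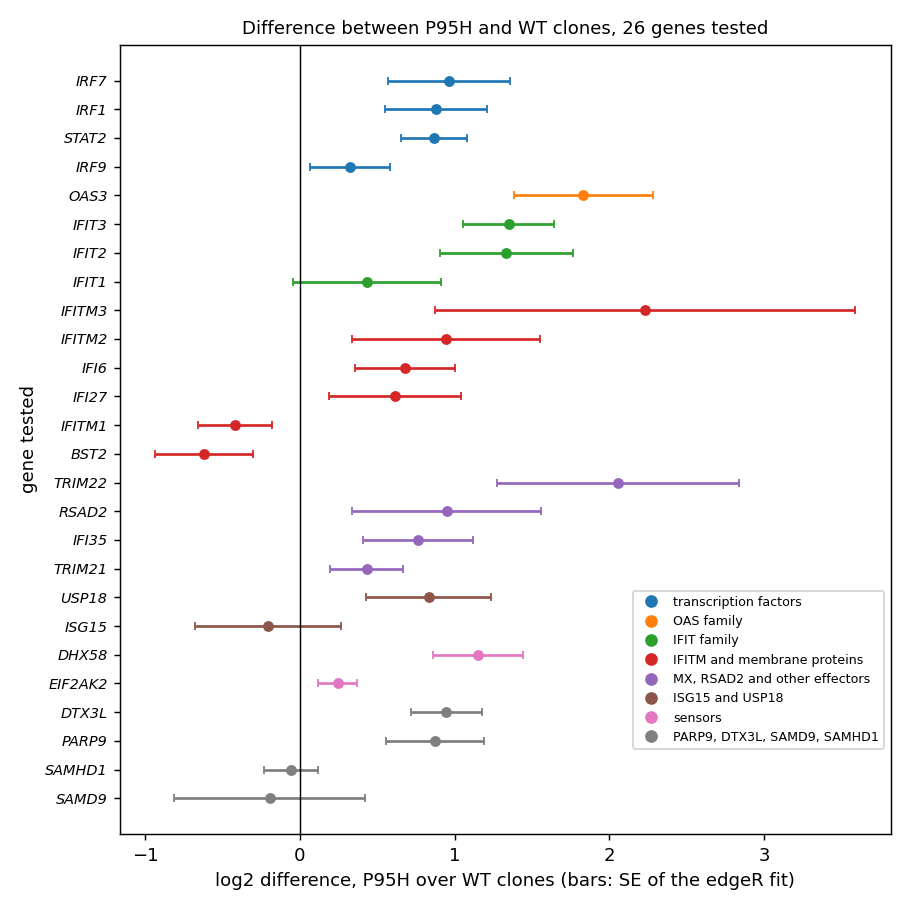
Log2 difference between P95H and WT clones for the 26 interferon-stimulated genes that were tested, from the edgeR fit, with bars for the standard error and colours for the role. Of these points 21 lie right of 0, from 0.24 for EIF2AK2 to 2.23 for IFITM3, and 5 lie left of it.

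Among the transcription factors, all 4 members had a higher mean in P95H clones. STAT2 (ENSG00000170581, chromosome 12), the partner of IRF9 in the complex, stood at 80.8, 59.4, 43.6 and 42.6 CPM in P9, P15, P22 and P38, against 32.4, 24.2, 33.3 and 34.6 CPM in W19, W33, W36 and W42 and 31.2 CPM in the parental library. The groups did not overlap, P9 was the highest, and the parental value fell among the WT clones. Its log2 difference was 0.87 (SE 0.21; edgeR adjusted p = 0.289), and it was 0.64 without P9. STAT2 had a log2 difference of 0.72 in P9 against the other 3 P95H clones (edgeR adjusted p = 1).

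IRF1 and IRF7 are transcription factors that switch on interferon and its targets, and IRF9 is the DNA-binding part of the STAT complex. IRF1 stood at 15.4, 31.4, 17.2 and 12.02 CPM in P9, P15, P22 and P38, against 10.04, 16.1, 8.40 and 7.24 CPM in W19, W33, W36 and W42. P15 was the highest and the groups overlapped through W33 (log2 difference 0.88, SE 0.33, edgeR adjusted p = 0.363, and 0.52 without P15). The exons of IRF1 overlap C5orf56 on the other strand, and reads of the pair cannot be told apart. In P15 IRF7 stood at 9.32 CPM, with the other P95H clones at 3.45 to 4.25 CPM, against 1.62 to 3.64 CPM in WT clones, with a log2 difference of 0.96 (0.50 without P15). For IRF9 the values were 1.29 to 1.88 CPM in P95H clones and 0.978 to 1.67 CPM in WT clones, and the highest of all was the parental library at 2.31 CPM. Its exons overlap another coding gene on the same strand, AL136295.5, over 48.4% of their length.

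Of the OAS family, enzymes that answer double-stranded RNA by making short oligoadenylates, OAS3 was the 1 member expressed well enough to test. OAS3 (ENSG00000111331, chromosome 12) stood at 5.40, 13.6, 9.01 and 2.56 CPM in P9, P15, P22 and P38, against 2.62, 2.22, 1.54 and 2.28 CPM in W19, W33, W36 and W42 and 3.57 CPM in the parental library. The values of P9, P15 and P22 lay above every WT clone, while P38 lay within the WT range. The log2 difference was 1.83 (SE 0.45; edgeR adjusted p = 0.286, 0.0085 by DESeq2 and 0.165 by limma-voom), and it was 1.40 without P15. OAS1, OAS2 and OASL had at most 7 reads in any library, and OAS1 and OAS2 at most 1.

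The IFIT proteins bind foreign RNA ends and block its translation, and the 4 genes lie together on chromosome 10. IFIT3 (ENSG00000119917) stood at 7.16, 9.51, 5.49 and 3.95 CPM in P9, P15, P22 and P38, against 2.95, 2.53, 3.01 and 1.80 CPM in W19, W33, W36 and W42 and 2.54 CPM in the parental library. Every P95H clone lay above every WT clone and the parental library. The log2 difference of 1.35 (SE 0.29) had the smallest edgeR adjusted p of all members, 0.282, against 0.00461 in DESeq2 and 0.0954 in limma-voom. With 1 clone left out it was 1.11 to 1.53.

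IFIT2 also did not overlap between the groups, though at a low level. It stood at 1.11, 1.02, 0.448 and 0.398 CPM in P9, P15, P22 and P38, against 0.178 to 0.364 CPM in WT clones and 0.202 CPM in the parental library (log2 difference 1.33, SE 0.43, edgeR adjusted p = 0.334). IFIT1 overlapped, at 0.498 to 1.38 CPM in P95H clones and 0.294 to 0.982 CPM in WT clones, with a log2 difference of 0.43 (SE 0.48, and 0.11 without P9). IFIT5 had 9 reads in P9, 8 in P15 and 1 to 3 in each other clone. For all 4 IFIT genes the 2 highest P95H clones were P9 and P15.

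**Figure D2:**
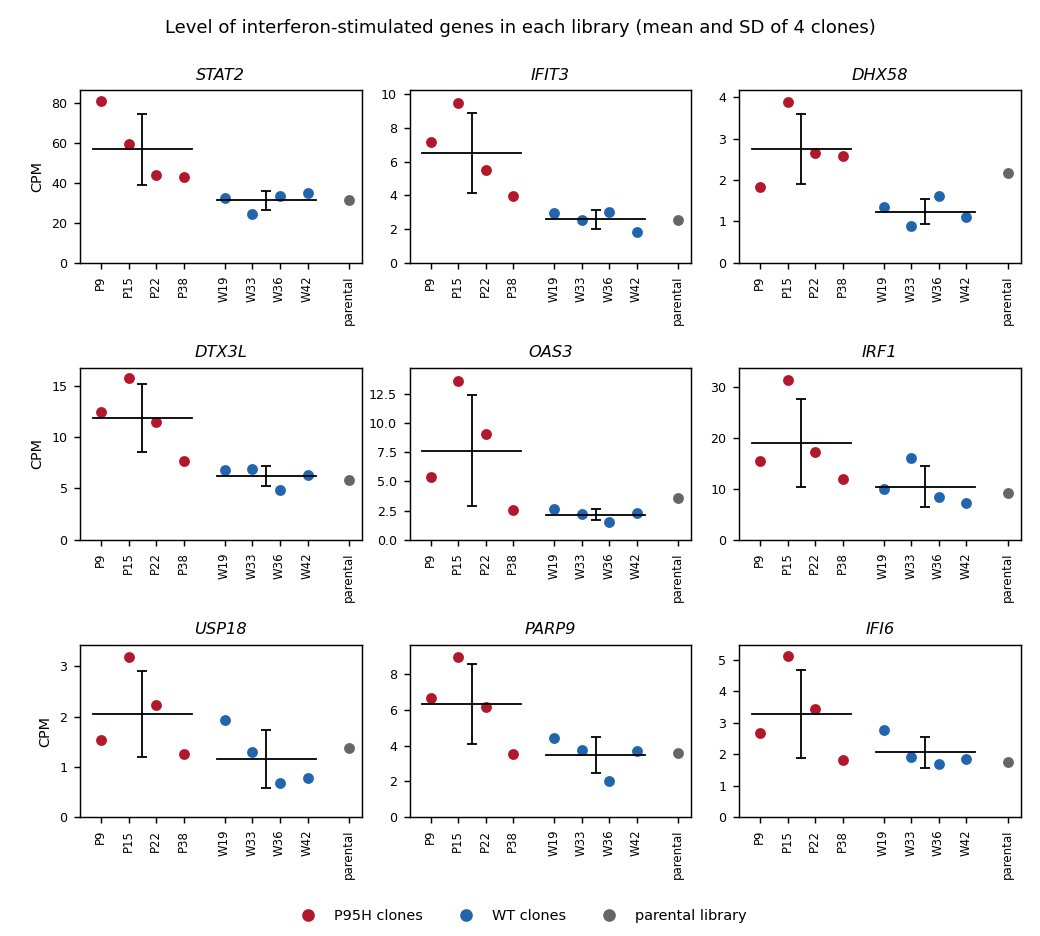
CPM of 9 interferon-stimulated genes in each library, with P95H clones left of WT clones and the parental library last; lines and bars give the mean and SD of 4 clones. The groups do not overlap for STAT2, IFIT3, DHX58 and DTX3L, P15 is the highest clone for every gene but STAT2, and P38 lies within the WT range for OAS3, IRF1, USP18, PARP9 and IFI6.

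The sensors detect viral RNA in the cytoplasm. DHX58 (ENSG00000108771, chromosome 17), which encodes LGP2, a helicase that modulates the RNA sensors MDA5 and RIG-I, stood at 1.84, 3.89, 2.66 and 2.59 CPM in P9, P15, P22 and P38, against 1.35, 0.889, 1.60 and 1.10 CPM in W19, W33, W36 and W42. The groups did not overlap, but the parental library at 2.16 CPM lay above all WT clones and above P9. The log2 difference was 1.15 (SE 0.29; edgeR adjusted p = 0.293, 0.0371 by DESeq2 and 0.119 by limma-voom).

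IFIH1, the gene of MDA5, was high in P9 and P15 alone of the 8 clones. It was at 1.26 CPM in P9 and 4.57 CPM in P15, with 33 and 148 reads, and at 0.179 and 0.0664 CPM in P22 and P38, against 0 to 0.218 CPM in WT clones. It did not pass the filter between the groups. EIF2AK2, the gene of PKR, a kinase that stops translation when it binds double-stranded RNA, stood at 49.1 to 58.3 CPM in P95H clones and 37.3 to 49.98 CPM in WT clones, with a log2 difference of 0.24 (SE 0.12, edgeR adjusted p = 0.468). Of the other 9 nucleic acid sensors matched, 4 were tested, 2 above and 2 below 0 with a median of 0.00, and 0 were called. DDX58, the gene of RIG-I, was among those below 0 (4.74 ± 1.35 CPM in P95H clones and 5.43 ± 1.07 CPM in WT clones, SD, n = 4 each).

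PARP9 and DTX3L form a complex that adds ADP-ribose and ubiquitin to its targets, and their genes share 1 start region on chromosome 3. DTX3L (ENSG00000163840) stood at 12.5, 15.7, 11.5 and 7.67 CPM in P9, P15, P22 and P38, against 6.77, 6.85, 4.81 and 6.33 CPM in W19, W33, W36 and W42 and 5.79 CPM in the parental library. The groups did not overlap, and P38 lay closest to the WT clones. Its log2 difference was 0.95 (SE 0.23), with an adjusted p of 0.286 in edgeR and 0.0153 in DESeq2. PARP9 had a like difference of 0.87 (SE 0.32, edgeR adjusted p = 0.356), at 6.70, 8.98, 6.15 and 3.52 CPM in P9, P15, P22 and P38 and 2.05 to 4.44 CPM in WT clones. Here P38 lay within the WT range. In the same role, SAMD9, an inhibitor of viral translation, stood at 0.806 to 3.89 CPM in P95H clones and 0.533 to 4.11 CPM in WT clones, and SAMHD1, which breaks down deoxynucleotides, at 22.5 to 36.1 CPM in P95H clones and 23.7 to 32.4 CPM in WT clones. Both had log2 differences near 0 (-0.20 and -0.06) that changed sign when single clones were left out.

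Proteins of the membrane showed both directions. IFI6 (ENSG00000126709, chromosome 1), a membrane protein that restricts viral replication, had the smallest p of this role, at 2.68, 5.12, 3.43 and 1.83 CPM in P9, P15, P22 and P38, against 2.76, 1.91, 1.70 and 1.84 CPM in W19, W33, W36 and W42. The groups overlapped, with P9 below W19 and P38 below W19, W33 and W42 (log2 difference 0.68, SE 0.32, edgeR adjusted p = 0.447, and 0.38 without P15). Genes around IFI6 on chromosome 1 were lower in P9 than in the other P95H clones, with a median log2 difference of -0.43 over 40 neighbours. IFI27 stood at 2.26 to 4.38 CPM in P95H clones and 1.28 to 4.85 CPM in WT clones, with W33 the highest of all 8 clones. Its log2 difference was 0.61, with 0.39 without W36 and 1.24 without W33.

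The IFITM proteins hinder the entry of viruses at membranes, and their genes lie side by side on chromosome 11. IFITM3 stood at 10.4, 251.6, 213.6 and 15.6 CPM in P9, P15, P22 and P38, against 2.66, 7.16, 5.10 and 90.5 CPM in W19, W33, W36 and W42 and 106.1 CPM in the parental library. High and low clones occurred in both groups, and the parental library was among the high ones. The log2 difference of 2.23 had an SE of 1.36 (edgeR adjusted p = 0.543) and was 1.62 without P15 and 4.63 without W42.

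IFITM2 was likewise at 99.97 CPM in P22 and 84.9 CPM in the parental library, against 7.24 to 35.9 CPM in the other 7 clones, and its log2 difference of 0.94 was 0.15 without P22. IFITM1 went the other way, at 150.3 to 319.7 CPM in P95H clones and 231.9 to 362.6 CPM in WT clones (log2 difference -0.42, SE 0.24, edgeR adjusted p = 0.512). It was -0.70 without P15, the 1 P95H clone inside the WT range. The 3 sequences are closely related and IFITM1 and IFITM2 overlap in exons, so reads may be divided between them with error.

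BST2, which encodes tetherin, a protein that holds budding viruses at the cell surface, was also lower in P95H clones. It stood at 74.8, 91.2, 94.5 and 72.2 CPM in P9, P15, P22 and P38, against 101.04, 241.4, 93.9 and 80.8 CPM in W19, W33, W36 and W42 and 155.2 CPM in the parental library. W33 was far above the rest, and the log2 difference of -0.62 (SE 0.31, edgeR adjusted p = 0.470) was -0.14 without it.

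**Figure D3:**
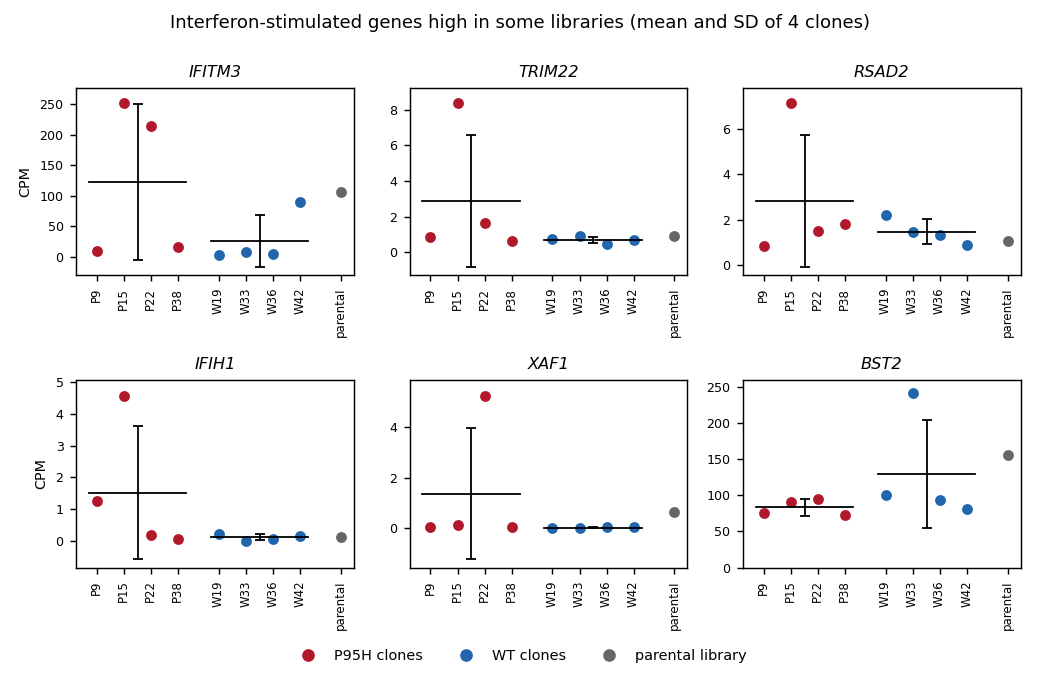
CPM of 6 members that were high in some of the libraries, drawn as single points with the mean and SD of 4 clones. IFITM3 is high in P15, P22, W42 and the parental library, TRIM22 and RSAD2 in P15, IFIH1 in P15 and, at a lower level, in P9, XAF1 in P22 and BST2 in W33.

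The remaining effectors were mostly silent or high in a single clone. TRIM22 (ENSG00000132274, chromosome 11), an antiviral ubiquitin ligase, stood at 0.842, 8.37, 1.64 and 0.631 CPM in P9, P15, P22 and P38, against 0.764, 0.889, 0.481 and 0.662 CPM in W19, W33, W36 and W42. Its log2 difference of 2.06 (SE 0.78, edgeR adjusted p = 0.374) rested largely on P15 and was 0.60 without it. RSAD2, the gene of viperin, which makes a chain-terminating nucleotide, reached 7.13 CPM in P15, with the other P95H clones at 0.842 to 1.83 CPM, against 0.883 to 2.22 CPM in WT clones. Without P15 its log2 difference of 0.95 became -0.07.

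TRIM21, a receptor for antibodies inside the cell, reached 20.9 CPM in P15, with the other P95H clones at 10.4 to 11.6 CPM, against 8.67 to 11.2 CPM in WT clones. IFI35 stood at 8.10 to 17.2 CPM in P95H clones and 3.97 to 12.1 CPM in WT clones (log2 difference 0.76, SE 0.36, edgeR adjusted p = 0.439). XAF1, a promoter of apoptosis, had 176 reads in P22 (5.25 CPM) and 0 to 4 reads in each other clone, with 23 reads in the parental library. Its exons overlap PRAL on the other strand. MX1, a dynamin-like antiviral GTPase that strongly marks interferon exposure in many tissues, had 3, 5, 0 and 2 reads in P9, P15, P22 and P38, 0 in every WT clone and 2 in the parental library. MX2 had 0 to 3 reads in any library, ISG20 1 to 20, IFI44 at most 1 and IFI44L 0.

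ISG15 is a ubiquitin-like protein that is joined to other proteins by the enzymes UBA7 (activation), UBE2L6 (conjugation) and ligases such as HERC5 and TRIM25, and removed by USP18. ISG15 itself lay high and low in both groups. It stood at 8.42, 14.9, 20.3 and 8.83 CPM in P9, P15, P22 and P38, against 16.0, 30.4, 7.27 and 7.69 CPM in W19, W33, W36 and W42. The log2 difference was -0.21 (SE 0.47, edgeR adjusted p = 0.889), and 0.35 without W33. USP18 (ENSG00000184979, chromosome 22), which also blocks the interferon receptor, stood at 1.53, 3.18, 2.24 and 1.26 CPM in P9, P15, P22 and P38, against 1.93, 1.29, 0.673 and 0.772 CPM in W19, W33, W36 and W42. The groups overlapped (log2 difference 0.83, SE 0.41, edgeR adjusted p = 0.455), and USP18 has near-identical copies that could take part of its reads.

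The conjugation genes that could be tested, UBA7 and UBE2L6, lay further apart between the groups than ISG15 did. UBA7, from the list of ISG15 conjugation genes outside the 37 members, stood at 3.90, 14.4, 9.64 and 1.96 CPM in P9, P15, P22 and P38, against 0.509, 1.29, 0.769 and 0.883 CPM in W19, W33, W36 and W42 and 1.30 CPM in the parental library. All P95H clones lay above all WT clones. The log2 difference was 3.14 (SE 0.60; edgeR adjusted p = 0.255, 2.66e-05 by DESeq2 and 0.1004 by limma-voom), and it was 2.61 without P15. UBE2L6, named after its values were seen, averaged 36.6 ± 14.5 CPM in P95H clones and 14.8 ± 7.60 CPM in WT clones (SD, n = 4 each), overlapping through P38 and W33 (log2 difference 1.32, SE 0.39, edgeR adjusted p = 0.320). HERC5 had no read in any clone. HERC6, below the filter, had the lower mean in P95H clones (0.188 CPM, against 0.363 CPM in WT clones, with W33 at 1.20 CPM). So 2 of the 4 genes of this list were tested and 0 called. TRIM25 comes from the list of further interferon-stimulated genes outside the 37 members. TRIM25 stood at 130.7, 101.3, 156.04 and 77.3 CPM in P9, P15, P22 and P38, against 65.4, 56.5, 59.2 and 57.2 CPM in W19, W33, W36 and W42, with no overlap (log2 difference 0.98, SE 0.20, edgeR adjusted p = 0.272, DESeq2 adjusted p = 0.00233).

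**Figure D4:**
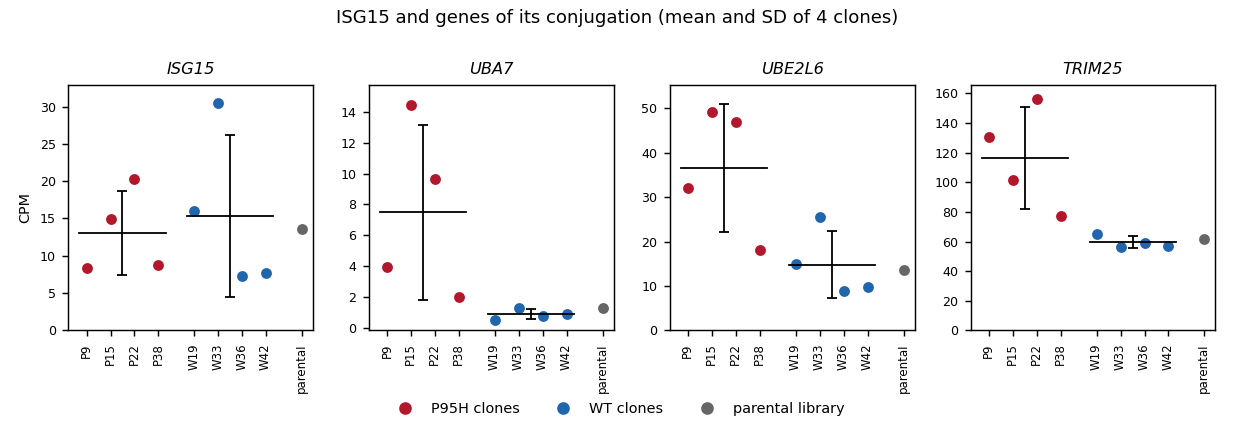
CPM of ISG15 and of 3 genes that act in its conjugation, in each library, with the mean and SD of 4 clones. ISG15 overlaps between the groups, while UBA7 and TRIM25 lie above every WT clone in all 4 P95H clones and UBE2L6 does so in P9, P15 and P22. HERC5 and HERC6, which were not tested, are not drawn.

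The rest of the pathway was measured with the same fit. Over all genes tested, 3.94% lay higher in every P95H clone than in every WT clone, and 4.63% lay lower. None of the 16 interferon genes searched reached the floor in any library, the highest value being 0.0576 CPM, and 13 of them were at 0 throughout. Of 9 receptor and kinase genes 8 were tested, with 7 above and 1 below 0, a median log2 difference of 0.11 and 0 called. Among them IFNAR2, a chain of the type I receptor, did not overlap between the groups (18.8 ± 1.70 CPM in P95H clones and 15.2 ± 0.875 CPM in WT clones, SD, n = 4 each, log2 difference 0.32, edgeR adjusted p = 0.378), but its exons overlap other genes on both strands. Of 12 other transcription factors and adaptors 9 were tested, with 6 above and 3 below 0, a median of 0.19 and 0 called. IRF2, which competes with IRF1, lay higher in every P95H clone (8.88 ± 0.890 CPM in P95H clones and 7.35 ± 0.219 CPM in WT clones), and TICAM1, the adaptor of the receptor TLR3, lower (8.80 ± 0.803 CPM in P95H clones and 11.3 ± 1.58 CPM in WT clones, SD, n = 4 each). Their log2 differences were 0.28 and -0.35, with edgeR adjusted p = 0.468 and 0.414.

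Of 6 negative regulators, 4 were above and 2 below 0, with a median of 0.06 and 0 called. Of 40 further interferon-stimulated genes outside the 37 members, 31 were tested, with 19 above and 12 below 0, a median of 0.15 and 0 called. At an unadjusted p under 0.05, 8 of the 31 were higher and 1, LY6E, lower, where 6.07% of all genes were higher and 5.65% lower. The P95H values all lay above the WT values for 2 of the 31, TRIM25 and SP100, and below them for 0. Of all genes, 3.94% and 4.63% were so placed. SP100 is a component of nuclear bodies (18.02 ± 2.995 CPM in P95H clones and 12.6 ± 1.08 CPM in WT clones, SD, n = 4 each, log2 difference 0.52, SE 0.15, edgeR adjusted p = 0.320). LGALS3BP, named after its values were seen, had 17.7, 77.4, 52.8 and 14.97 CPM in P9, P15, P22 and P38, against 5.61 to 21.4 CPM in WT clones. The median of the 37-gene list, 0.85 over its 26 tested members, thus stood beside 0.15 over the 31 tested genes of this second list, and the difference between the lists was not tested.

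Clone by clone, the members separated P15 from the other P95H clones. Relative to the WT mean of each gene, the 26 tested members had a median of 0.44 (P9), 1.33 (P15), 0.64 (P22) and 0.24 (P38) in the P95H clones, against 0.15 in W19, 0.10 in W33, -0.24 in W36 and -0.08 in W42, and it was 0.01 in the parental library. All 4 P95H clones thus lay above all WT clones, and P38 lay close to W19. P15 had the highest value of the 8 clones for 16 of the 26 members, where it had the highest for 14.5% of all genes. P9 was highest for 3 members (14.9% of all genes), P22 for 2 (12.9%), W33 for 4 (28.9%) and W19 for 1 (4.13%).

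**Figure D5:**
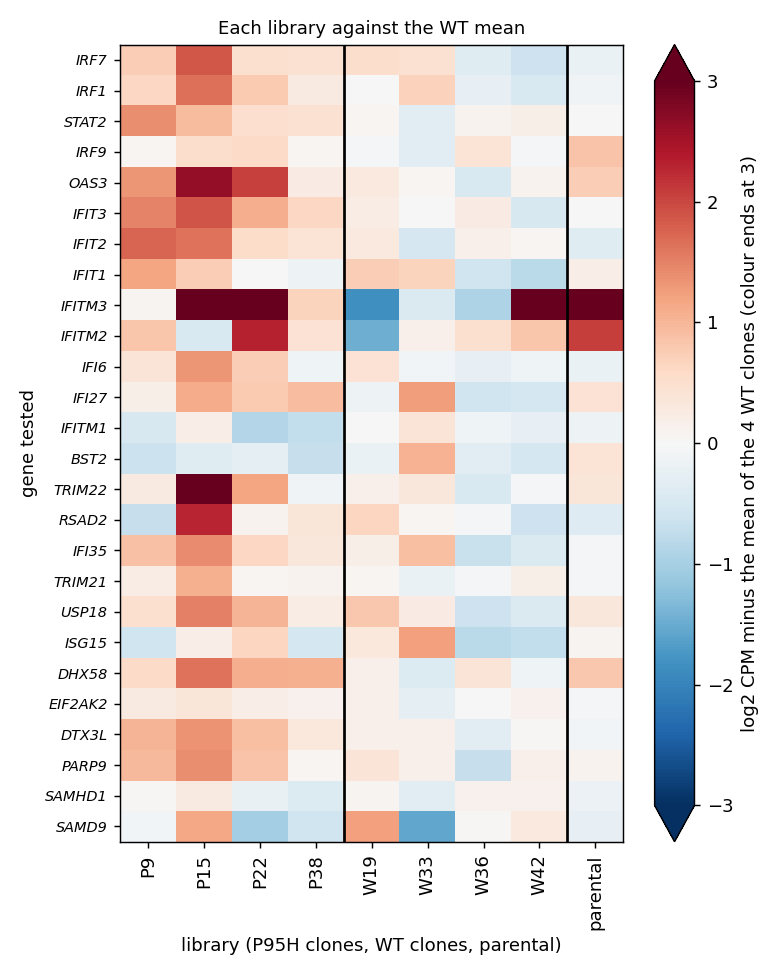
Log2 CPM of each tested member in each library minus the mean of the 4 WT clones, with P95H clones left, WT clones in the middle and the parental library right; red is higher, blue lower, and the colour ends at 3. The column of P15 is red for nearly all members, with a median of 1.33, and the columns of P38 and the WT clones are pale apart from single genes.

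Set against the other 3 clones of its own group, P15 had a median log2 difference of 0.79 over 30 members, 28 of them above 0, while P38 had a median of -0.81, with 2 of 30 above 0. The other medians were -0.36 in P9, -0.12 in P22, 0.15 in W19, -0.03 in W33, -0.39 in W36 and -0.14 in W42. Of these, the medians of P9, P22 and W33 changed sign when a single clone was left out, being 0.057 in P9 and 0.21 in P22 without P15, and 0.26 without W19 or 0.15 without W42 in W33. In each of these fits the lone library was assumed to vary like the clones, and the 30 members are those that passed the filter of that fit. XAF1, IFIH1 and IFIT5 passed it through other P95H clones, so their values below 0 in P38 (-5.61, -4.83 and -2.46) carry no weight. In P15 the values of IFIH1 (3.21), IFIT5 (0.91) and ISG20 (1.29) above 0 and of XAF1 (-3.83) below 0 carry none either. These genes passed the filter through P15 or a few other clones and were not tested between the groups. The medians and counts over the 30 members still include them. Over all genes tested the median was -0.02 in P15 and -0.03 in P38. In P15, 0 members were called where 0.00492% of all genes were, and TRIM22 came nearest (log2 difference 2.99, SE 0.48, edgeR adjusted p = 0.192). RSAD2 (2.34), TRIM21 (0.94), IFITM1 (0.90) and IRF7 (1.32) came next by p. With no filter TRIM22 was called in P15 (0.0727% of all genes), with DESeq2 TRIM21, TRIM22 and RSAD2 (1.48%), and with limma-voom TRIM22 (0.334%). IRF7, the IFITM genes, TRIM21 and TRIM22 lie on chromosome 11, where genes around them were higher in P15 than in the other P95H clones by a median log2 of 0.55 to 0.60. RSAD2 lies on chromosome 2, with a neighbour median of 0.01 in P15. The neighbours of OAS3 and IFIT3, on chromosomes 12 and 10, had medians of 0.06 and -0.04 in P15.

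In P22, 1 member was called where 0.452% of all genes were. It was XAF1, which passed the filter of this fit through P22 alone, with 176 reads there and 1, 4 and 1 in P9, P15 and P38, so the reads are given as a description. With at least 1 CPM required in 4 libraries, 0 members were called where 0.372% of all genes were. In W33, 2 members were called where 11.1% of all genes were: BST2 (1.35, SE 0.18, adjusted p = 0.0168) and IFI27 (1.67, SE 0.36, adjusted p = 0.0295). Both were higher in W33, and genes around BST2 were higher there by a median of 0.50. Without W36 or without W42 neither was called, nor was any other gene tested. Without W19 BST2 alone of the members was, and fewer of all genes were called than with W19 kept. DESeq2 called ISG15 as well (log2 difference 1.54, adjusted p = 0.0350), 3 members where it called 18.2% of all genes. The share of members called in W33 was no higher than that of all genes. In P9, P38, W19 and W36, 0 members were called and 0% of all genes. In W42, 0 members were called where 0.0197% of all genes were, with IFITM3 at a log2 difference of 4.21 (SE 1.53, edgeR adjusted p = 0.939).

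At the level of the list the parental library lay near the WT clones. Set against them in a fit of all 9 libraries, it had 15 of 30 members above 0 and a median log2 difference of -0.01, and 0 members were called where 0.00485% of all genes were. IRF9 had the smallest p (log2 difference 0.86, SE 0.38, edgeR adjusted p = 1). IFITM3 and IFITM2 were high in the parental library as in some clones, and XAF1 was at 0.663 CPM there, above each clone but P22. A p that misses the threshold with 1 library does not show that the parental line and the WT clones were alike.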

How the data were processed

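Polyadenylated RNA of 9 K562 cultures was sequenced on a HiSeq2000 after TruSeq library preparation, per the labels' protocols. The authors deposited unnormalized read counts for each Ensembl gene. The submitters' processing notes name build GRCh37, TopHat2 2.0.4, HTSeq 0.6.1p1 and bcl2fastq. How the counter treated strand and overlaps is not given in the sources used here, so reads of overlapping antisense genes cannot be told apart. The 5 closing summary values of each list, among them reads in no gene (47.6 to 49.1% of reads), stayed out of all totals. Reads set aside as ambiguous (2.23 to 2.55% of reads) were among them too, so genes with overlapping exons may have lost reads.

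Groups came from the sample titles. P95H and WT clones were compared with edgeR 4.0.16 (R 4.3.3): filterByExpr, TMM scaling, robust quasi-likelihood F test, and p-values adjusted by Benjamini-Hochberg across every gene tested, threshold 0.05. The parental library and single clones were tested in the same way as groups of 1. CPM are scaled by TMM over 9 libraries, a prior count of 2 went into log2 CPM, and the SE was computed from the log2 difference and its F value. The procedure was checked on simulated counts. Alternatives were scaling by RLE or upper quartile, no filter, at least 1 CPM in 4 libraries, DESeq2 1.42.0, limma-voom (limma 3.58.1), each clone left out, and other uses of the parental library; leaving out W33 and P22 together, or members on chromosomes 1 and 11, was added after seeing the data.

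The members, lists and rules were chosen with earlier results of these data known. Full values are given for members with non-overlapping groups and a mean of 1 CPM or more, then for the member with the smallest p in each role without one; list genes are named where they pass the test, or do not overlap at 1 CPM or more (at most 4 a list). Other genes with values were chosen after these were seen. Symbols, chromosomes, gene order and exon overlaps came from GENCODE 29 (GRCh38); of the 10 other sensors MB21D1 was not matched. Neighbour medians use up to 20 genes of at least 5 CPM on each side. Some genes of the other pathway lists are not reported here by name.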

Additional observations from a re-analysis of the deposited data

Results flagged for a closer look

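In 60 groups of 4 clones, a test for 1 value far from the other 3 was applied to the CPM of each member, and 10 were picked out. For values with a normal spread, chance picks about 1 in 20. The test was not run over all genes, so the 10 cannot be set against a share of all genes. In P95H clones P15 was far above the others for IRF7 (9.32 CPM), RSAD2 (7.13 CPM), TRIM21 (20.9 CPM) and TRIM22 (8.37 CPM), and P22 for XAF1 (5.25 CPM, the other P95H clones being at 0.0332 to 0.123 CPM). Of these, IRF7, TRIM21 and TRIM22 lie on chromosome 11 among genes that were higher in P15, with neighbour medians of 0.55 to 0.60 on the log2 scale, while RSAD2 does not; the part of the neighbourhood was not tested.

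In WT clones W33 was far above the others for BST2 (241 CPM), IFI27 (4.85 CPM) and ISG20 (0.578 CPM, 13 reads), and far below them for SAMHD1 (23.7 CPM against 31.3 to 32.4 CPM). Over all tested genes, W33 had the highest value of all clones for 28.9% and the lowest for 28.1%. W42 was far above the others for IFITM3 (90.5 CPM against 2.66 to 7.16 CPM).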

How the results depend on the processing

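The median log2 difference of the members between P95H and WT clones stayed above 0 under every alternative run, from 0.51 without P15 to 0.99 without P38. The count of genes called over all genes was 0 in the main test, 2 with no filter, 261 with DESeq2, 59 with limma-voom, 5 without W33 and P22, and 0 to 1 with single clones left out (1 without W19). The count of members called was 5 with DESeq2 and 0 under each other setting, also at 0 to 0 with single clones left out. The cause of the difference between tools was not tested. Of 439 values of single genes under the alternatives, 427 kept their direction and side of the threshold, 5 passed it (the DESeq2 calls) and 7 changed sign: ISG15 to 0.20 with limma-voom, 0.35 without W33 and 0.055 without W33 and P22; SAMD9 to 0.34 without W19 and 0.05 without P22; RSAD2 to -0.068 without P15; SAMHD1 to 0.045 without P38. With single clones left out ISG15 ranged from -0.52 to 0.35, RSAD2 from -0.068 to 1.24, SAMD9 from -0.86 to 0.34 and SAMHD1 from -0.19 to 0.045. For single clones, the members called in P15 were 1 with no filter (TRIM22), 3 with DESeq2 (TRIM21, TRIM22 and RSAD2) and 1 with limma-voom (TRIM22). In P22 the count was 0 with at least 1 CPM in 4 libraries, a filter that removes XAF1, and in W33 it was 3 with DESeq2, ISG15 being the third. The members called in W33 changed with single clones left out. BST2 alone was called without W19, and no member without W36 or W42, where no other gene was called either. The median of W36 was -0.18 with limma-voom and -0.48 to -0.19 with single clones left out. With single clones left out the median ranged across 0 in P9 (-0.61 to 0.057), P22 (-0.33 to 0.21) and W33 (-0.078 to 0.26); with limma-voom it was also above 0, at 0.016, 0.065 and 0.16, and in W33 0.024 with upper quartile scaling. The fits with a clone left out assume that a lone library varies like the others. At 24546255 to 35477328 reads in genes, 11 members did not pass the filter; with no filter 9 of them were tested and 0 called, with the smallest adjusted p for MX1 (0.485), and log2 differences of 3.75 for IFIH1 (0.623) and 5.96 for XAF1 (0.629). No paired analysis was possible because the clone numbers of the groups are not shared.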
